A study of Mus musculus with 2 samples.

Results

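The 10 microRNA hairpins that are relatives of the mir-17-92 polycistron but lie outside it were measured in mouse embryonic hindbrain. They are Mir106b, Mir93 and Mir25 of the mir-106b-25 cluster, Mir106a, Mir18b, Mir20b, Mir19b-2, Mir92-2 and Mir363 of the mir-106a-363 cluster, and the solitary Mir92b. They were taken by locus, as the rows whose Ensembl identifiers belong to these clusters, and make up 10 of the 1973 microRNA gene rows. The hindbrain came from healthy B6NCrl embryos at embryonic day 13.5, with both sexes pooled, and short RNA under a size limit of 30 was sequenced. Both libraries belong to the same untreated group, carry the same donor identifier and differ in their biosample identifiers. No label says that they are from different litters, and their spread may include technical variation. There is no second tissue or stage, and what follows gives levels in this tissue, the relation of the hairpins to each other and to the Mir17hg polycistron, and the difference between the libraries.

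A microRNA is cut from a hairpin in a longer transcript, first by Drosha and then by Dicer, and finds messenger RNAs mainly through its seed, the bases 2 to 8 from its 5′ end. The mir-17-92 polycistron and its relatives descend from duplications of an ancestral cluster, so hairpins on different chromosomes carry the same seeds. These clusters are known from dividing progenitors. Mice without mir-106b-25 or mir-106a-363 are viable, while loss of mir-17-92 together with mir-106b-25 kills embryos. The mir-106b-25 cluster is known to raise proliferation of adult mouse neural progenitors, and miR-92b to limit mouse cortical intermediate progenitors by repressing Eomes.

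The mir-106b-25 hairpins lie at chr5:138165321-138165818 on the minus strand of GRCm38, the assembly that mm10 also denotes. All 3 sit in intron 13 of transcript 201 of Mcm7, which encodes a subunit of the replicative helicase. None of the 7 coding transcripts of Mcm7 has an exon there, and a retained-intron transcript covers Mir93 and Mir25. The 6 mir-106a-363 hairpins span 875 nt at chrX:52741693-52742567 on the minus strand. On that strand they are outside other annotated genes except that 5 nt of Mir106a overlap the non-coding gene Kis2. Mir92b lies alone at chr3:89227116-89227198 on the minus strand, outside other genes of that strand. It is 28 nt from Mtx1, which encodes a mitochondrial membrane protein and is on the same strand. Overlap with non-coding genes on the opposite strand was not examined. The 6 hairpins of Mir17hg, the long non-coding RNA that carries mir-17-92, lie at chr14:115043671-115044506 on the plus strand and served as the comparison.

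The mature sequences place the hairpins in seed groups. RefSeq, on build GRCm38.p6, listed all 16 hairpins with the same sequence and coordinates as GENCODE. The arm that carries the family seed is given for each, 5′ to 3′, with the seed in capitals. Of the 10 hairpins outside Mir17hg, 4 carry the seed AAAGUGC, called here the miR-17 seed:
Mir93, miR-93-5p: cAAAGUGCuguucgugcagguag
Mir106b, miR-106b-5p: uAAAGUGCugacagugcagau
Mir106a, miR-106a-5p: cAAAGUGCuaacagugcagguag
Mir20b, miR-20b-5p: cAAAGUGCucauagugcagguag
Mir17 of Mir17hg, miR-17-5p: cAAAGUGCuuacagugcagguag
Mir20a of Mir17hg, miR-20a-5p: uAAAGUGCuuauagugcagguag

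Mir18b carries the miR-18 seed and Mir19b-2 the miR-19 seed, which each have a single hairpin outside Mir17hg. They are set beside their Mir17hg relatives:
Mir18b, miR-18b-5p: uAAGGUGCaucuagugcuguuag
Mir18 of Mir17hg, miR-18a-5p: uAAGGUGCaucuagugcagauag
Mir19b-2 and Mir19b-1 of Mir17hg, miR-19b-3p: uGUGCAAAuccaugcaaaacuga
Mir19a of Mir17hg, miR-19a-3p: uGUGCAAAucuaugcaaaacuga

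The other 4 share the miR-92 seed, on the 3′ arm:
Mir92b, miR-92b-3p: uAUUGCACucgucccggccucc
Mir25, miR-25-3p: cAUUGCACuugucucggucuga
Mir363, miR-363-3p: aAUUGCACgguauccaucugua
Mir92-2 and Mir92-1 of Mir17hg, miR-92a-3p: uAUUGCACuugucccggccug

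Each arm was taken for its family seed, so none of the 10 can differ from its Mir17hg relative inside the seed. With positions counted from 1 at the 5′ end and the Mir17hg base given first, miR-106a-5p differs from miR-17-5p only by U10A. Over the same 23 bases miR-93-5p differs from it by U10G, A11U, C12U and A13C. Over 21 bases miR-106b-5p differs from miR-17-5p by C1U, U10G and G20A. The change from miR-20a-5p to miR-20b-5p is U1C with U10C, so all 4 hairpins with the miR-17 seed depart from their relative at base 10. In miR-18b-5p the changes from miR-18a-5p are A18U and A20U. From miR-92a-3p, miR-92b-3p departs by U10C and G21C over 21 bases, miR-25-3p by U1C, C14U and C18U, and miR-363-3p at 11 positions.

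Mir19b-2 and Mir92-2 need caution before any level is read. Their mature sequences are also made from Mir19b-1 and Mir92-1 of Mir17hg, and reads with several matches stand in a summary row for multimapping, not in any gene row. That row held 33.9% of the reads in replicate 1 and 34.5% in replicate 2. The hairpins of each pair are given whole, with the longest stretch that both hold in capitals:
Mir92-2, chrX:52741838-52741928, minus strand: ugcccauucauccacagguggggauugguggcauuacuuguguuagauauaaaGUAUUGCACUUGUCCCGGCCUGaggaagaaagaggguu
Mir92-1, chr14:115044427-115044506, plus strand: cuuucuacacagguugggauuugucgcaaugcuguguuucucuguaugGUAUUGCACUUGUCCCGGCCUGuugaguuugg
Mir19b-2, chrX:52741983-52742066, minus strand: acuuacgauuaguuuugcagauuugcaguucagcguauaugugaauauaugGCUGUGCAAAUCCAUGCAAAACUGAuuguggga
Mir19b-1, chr14:115044305-115044391, plus strand: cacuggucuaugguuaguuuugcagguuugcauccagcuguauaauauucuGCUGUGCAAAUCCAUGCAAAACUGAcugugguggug
The Mir92 pair shares 22 nt, which is miR-92a-3p with 1 base before it and none after it. The Mir19b pair shares 25 nt, which is miR-19b-3p with 2 bases before it and none after it. For the other 8 hairpins outside Mir17hg no second hairpin among 1005 in RefSeq or 2202 microRNA genes in GENCODE held the family mature sequence. Their longest exact stretch in common with any other RefSeq hairpin was 12 to 17 nt. With mismatches allowed some are closer, as miR-106a-5p differs from miR-17-5p by 1 base and miR-18b-5p from miR-18a-5p by 2. How reads with mismatches were placed was not tested.

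The libraries held 3006571 counts on the annotated strand of gene rows in replicate 1 and 4508244 in replicate 2. Levels are counts per 1000000 of these totals (CPM), and reads of the other arm of a hairpin are in the same row. How evenly the library preparation captured different sequences was not tested, so ratios between hairpins are ratios of counts. At least 10 counts in both libraries were asked of a detected gene, which 356 genes met. For the tissue check, all 3 markers of hindbrain and trunk position (Mir10a, Mir10b and Mir615) were detected, and they summed to 123562 ± 17114 CPM (SD, n = 2). Of the neuronal markers 6 of 7 had a row and 2 of those were detected, the list summing to 6791 ± 174 CPM, with Mir137 highest at 6207 CPM. The rest of that list are numbered copies of Mir124a and Mir9. Reads that match several copies are multimapping and in no gene row, so those rows are no measure of Mir124a or Mir9. The multiciliated and choroid plexus markers summed to 4138 CPM in replicate 1 and 8254 CPM in replicate 2, with 3 of 4 detected. The erythroid list summed to 173 CPM in replicate 1 and 78.3 CPM in replicate 2, and the epithelial list to 233 CPM in replicate 1 and 123 CPM in replicate 2. In the muscle list Mir1a-1, Mir133a-1 and Mir133a-2 were at 0 in both libraries and Mir206 was detected, the list summing to 32.6 CPM in replicate 1 and 64.1 CPM in replicate 2. Mir1a and Mir133a are listed as numbered copies too, so these values of 0 do not show absence. Of the pluripotent cell markers 5 of the 9 with a row were detected, the list summing to 1892 CPM in replicate 1 and 1753 CPM in replicate 2, with Mir302a highest at 777 CPM. The endothelial marker Mir126a had 19729 ± 1148 CPM and the myeloid marker Mir223 had 147 ± 7.80 CPM (SD, n = 2). In a whole tissue, more cells of a type and more RNA per cell cannot be told apart.

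The 10 hairpins together held 3.28% ± 0.194 of the counts (SD, n = 2), and 9 of them were detected. Among these 9 the highest level was 301 times the lowest. In the gene rows the mir-106b-25 cluster was by far the most abundant of the loci at 26470 ± 1463 CPM. Mir92b followed at 4272 ± 453 CPM, and the mir-106a-363 cluster had 2019 ± 23.7 CPM. That last sum lacks the multimapping reads of Mir92-2 and Mir19b-2, so the locus may stand higher. Mir93, Mir106b and Mir92b alone made up 92.6% of the sum, and on the strand opposite to the annotated one the 10 hairpins had 0 counts in both libraries.

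**Figure D1:**
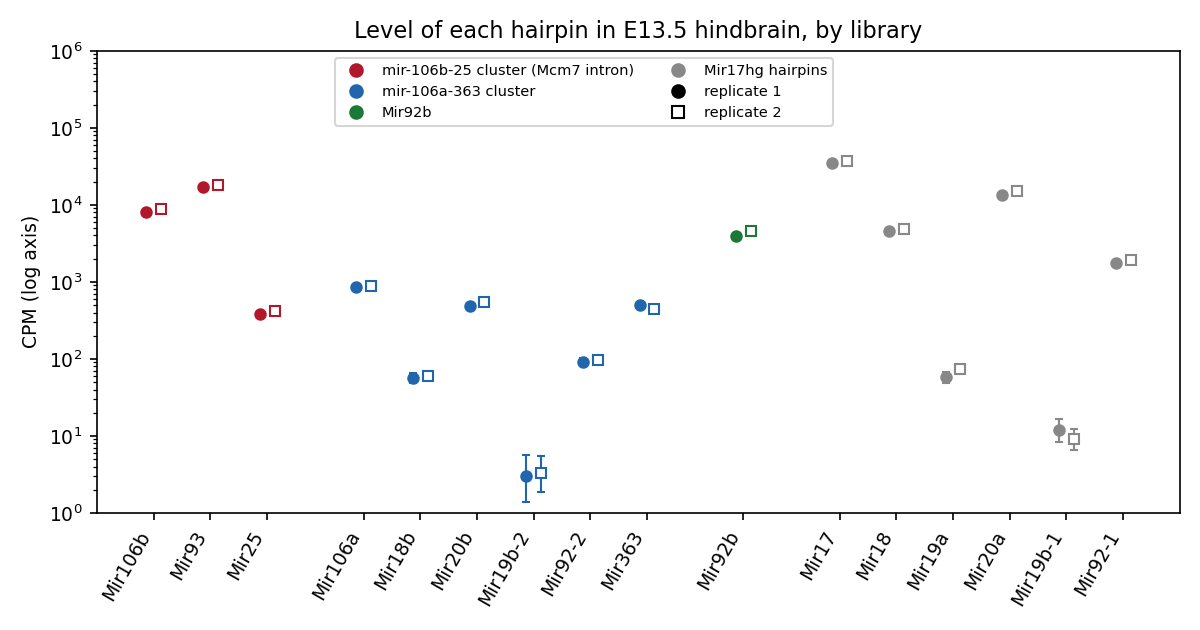
Level of each hairpin in CPM on a log axis, with filled circles for replicate 1, open squares for replicate 2 and bars for the exact Poisson 95% interval of the count. Hairpins run in the order of their cluster. The Mcm7 hairpins Mir93 and Mir106b stand highest outside Mir17hg. Mir19b-2 is lowest, at 2.99 and 3.33 CPM, in a row that holds no multimapping reads.

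In the Mcm7 intron, Mir93 (ENSMUSG00000065527.1) was the highest. Its counts came to 16953 CPM in replicate 1 and 18257 CPM in replicate 2, rank 13 of all genes by mean level. Its product, like that of Mir106b, is known to repress the cell cycle inhibitor Cdkn1a in human cells. Mir106b, the first hairpin of the cluster, stood at 8099 CPM (replicate 1) and 8827 CPM (replicate 2), rank 22. Mir25, the last hairpin and a relative of Mir92-1 by its seed, stood at only 384 CPM (replicate 1) and 422 CPM (replicate 2), rank 135. The libraries' values did not overlap between any of these hairpins.

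The proportions within this cluster were nearly the same in both libraries. Mir93 exceeded Mir106b 2.09-fold in replicate 1 (exact 95% interval 2.06 to 2.13) and 2.07-fold in replicate 2 (2.04 to 2.09). In counts, Mir93 exceeded Mir25 by 44.1-fold in replicate 1 (41.6 to 46.8) and 43.3-fold in replicate 2 (41.4 to 45.3). Their hairpins are 118 nt apart in the same intron. The intervals of these ratios cover counting error only, as the labels name no molecular identifiers. They do not cover uneven capture of the sequences, which would be alike in both libraries. Each hairpin's share of the cluster was 66.5% ± 0.193 for Mir93, 32.0% ± 0.177 for Mir106b and 1.52% ± 0.0161 for Mir25 (SD, n = 2).

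**Figure D2:**
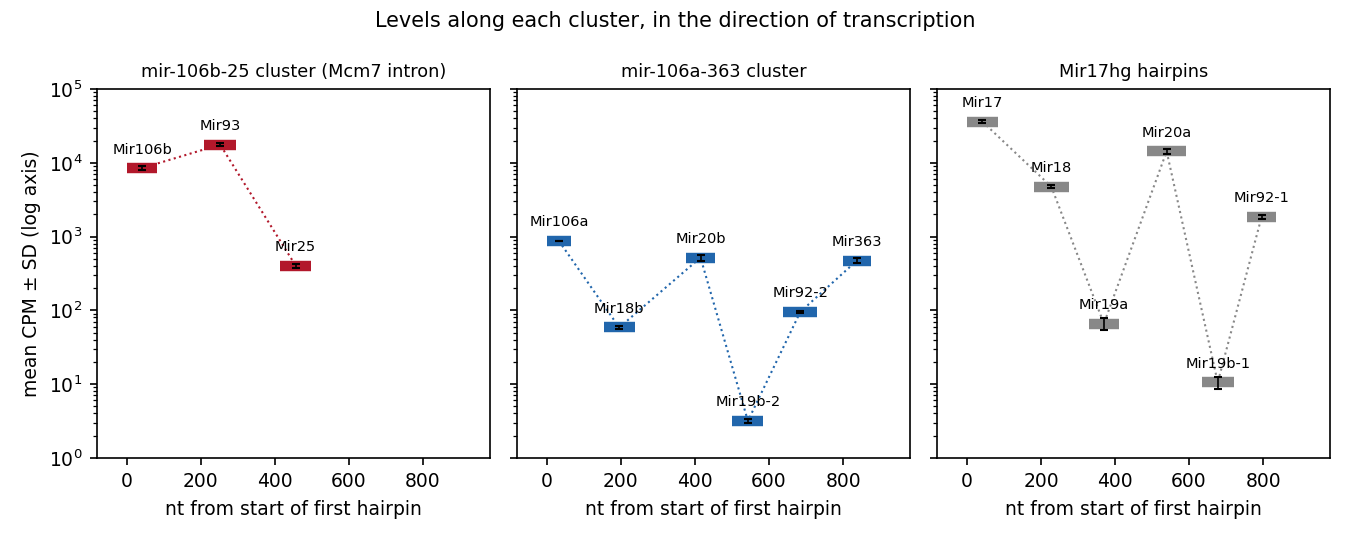
Mean CPM on a log axis, with the SD of the 2 libraries as black bars, against the distance in nt from the start of the first hairpin, in the direction of transcription. Thick segments are hairpins to scale and the dotted line joins them in order. Level does not follow order. Within 498 nt the Mcm7 cluster ends with Mir25 at 403 CPM, and on X Mir18b, the second hairpin, is below Mir20b, the third. Mir19b-2, the fourth, is lowest at 3.16 CPM. The rows of the Mir19b and Mir92 pairs hold no multimapping reads, so their loci may stand higher than drawn.

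On the X chromosome, Mir106a, the first hairpin and the counterpart of Mir17, had the highest gene row of its cluster. Replicate 1 gave 867 CPM and replicate 2 gave 875 CPM, 43.1% ± 0.236 of the cluster's gene-row counts (SD, n = 2). The rows of Mir92-2 and Mir19b-2 hold no multimapping reads, so the order of the loci themselves was not settled. Mir20b, the counterpart of Mir20a, stood at 483 CPM (replicate 1) and 553 CPM (replicate 2). Mir363, which ends the cluster and has no counterpart in Mir17hg, stood at 500 CPM (replicate 1) and 447 CPM (replicate 2). Mir20b and Mir363 changed places: Mir20b was 0.967 of Mir363 in replicate 1 (exact 95% interval 0.899 to 1.04) and 1.24 times it in replicate 2 (1.17 to 1.31), so their order is not beyond the spread of the libraries.

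The rest of the X cluster was low. Mir92-2 stood at 92.5 CPM (replicate 1) and 97.8 CPM (replicate 2). Mir18b, whose mature sequence is its own, stood at 56.9 CPM (replicate 1) and 60.1 CPM (replicate 2). Mir19b-2 was not detected by the 10-count rule, with 9 counts in replicate 1 and 15 in replicate 2, or 2.99 and 3.33 CPM. The floor set for a count of 0 was 3 counts, or 0.998 and 0.665 CPM. It is not the exact Poisson limit used for the other counts. For Mir92-2 and Mir19b-2 the row holds no multimapping reads, so the level of the locus may be higher than the row; by how much was not tested.

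Mir92b (ENSMUSG00000076255.2), which has the highest GC content of the 10 hairpins at 67.5%, stood at 3952 CPM (replicate 1) and 4593 CPM (replicate 2), rank 40 in each. In the gene rows it was higher than Mir25, Mir363 and Mir92-2, the other hairpins outside Mir17hg with the miR-92 seed, in both libraries.

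Ordered by mean level, the 10 ran Mir93, Mir106b, Mir92b, Mir106a, Mir20b, Mir363, Mir25, Mir92-2, Mir18b and Mir19b-2. Of the 9 pairs of neighbours in this order, 1 had overlapping library values, Mir20b with Mir363. Mir363 over Mir25 was close as well, 1.30 in replicate 1 and 1.06 in replicate 2, where the exact 95% interval, 0.994 to 1.13, includes equal levels. Short RNA reads were not scaled by length. Dividing by hairpin length, 65 to 91 nt, left all 10 in the same place of the order.

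Genes outside the family with the nearest mean level, in log2 CPM over both libraries, place these hairpins among the others. Nearest to Mir93 was Mir30e at 16894 ± 1314 CPM, then the endothelial Mir126a at 19729 ± 1148 CPM. Nearest to Mir92b were Mir423 at 4238 ± 533 CPM and Mir183 at 4238 ± 459 CPM. Nearest to Mir106a were Mir323 at 877 ± 25.5 CPM and Mir138-1 at 863 ± 23.3 CPM (SD, n = 2 for each). This is likeness in level within a single tissue.

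Set beside Mir17hg, which summed to 57046 ± 2678 CPM, the 10 hairpins gave 36.5% ± 0.285 of the counts of both together (SD, n = 2). Neither sum holds multimapping reads, so this share covers only reads placed at a single locus. The share differed between the seed groups, whose counts are those of whole gene rows and include reads of the other arm. For the miR-17 seed the 4 hairpins outside Mir17hg held 35.2% of the counts in replicate 1 (exact Clopper-Pearson 95% interval 35.0 to 35.4) and 35.4% in replicate 2 (35.2 to 35.6). For the miR-92 seed they held 73.6% in replicate 1 (73.0 to 74.2) and 74.1% in replicate 2 (73.6 to 74.6), most of it from Mir92b. The Mir17hg side there is Mir92-1 alone, which shares its mature sequence with Mir92-2, and multimapping reads are counted for neither.

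Among counts in the gene rows, those of the remaining seed groups came mostly from Mir17hg. Mir18b held 1.22% of the miR-18 seed counts in replicate 1 (1.04 to 1.41) and 1.22% in replicate 2 (1.08 to 1.37). Of the miR-19 seed counts Mir19b-2 held 4.13% in replicate 1 (1.90 to 7.69) and 3.83% in replicate 2 (2.16 to 6.23). In the gene rows the miR-19 group summed to 3.16 ± 0.236 CPM from Mir19b-2 and 76.6 ± 9.98 CPM from Mir19a and Mir19b-1 (SD, n = 2), of which Mir19a had 66.0 ± 12.0 CPM. Mir19a has a mature sequence of its own, which differs from miR-19b-3p by 1 base. A full miR-19b-3p read matches both Mir19b loci, and multimapping reads are in neither row, so these values are no measure of the miR-19b-3p level and do not rank its source against Mir19a.

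**Figure D3:**
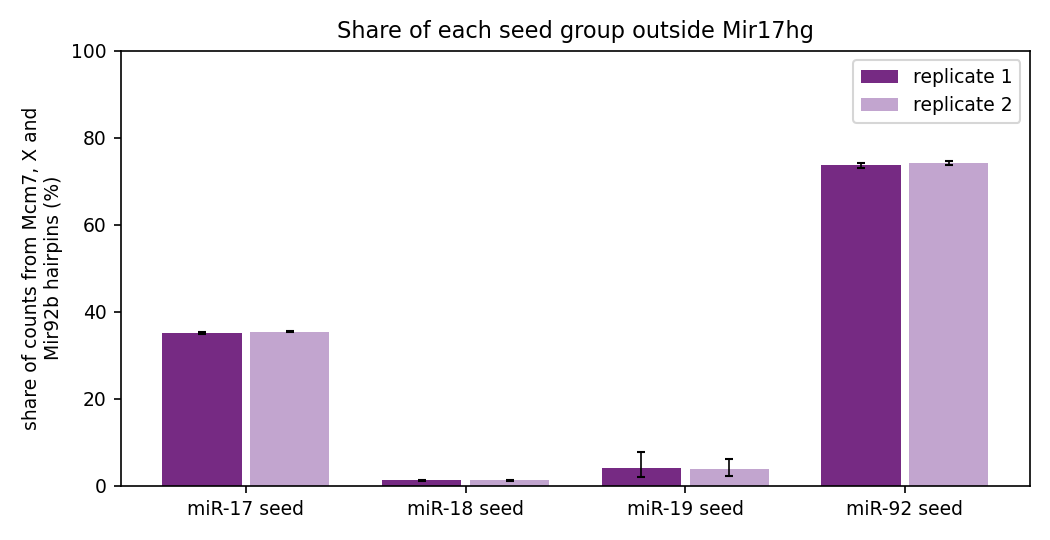
Share of the counts of each seed group that came from the 10 hairpins outside Mir17hg, in percent of these and the Mir17hg hairpins together, with bars from 0 and exact Clopper-Pearson 95% intervals. Both libraries stand near 35% for the miR-17 seed and above 73% for the miR-92 seed, and below 5% for the others. Reads that match both hairpins of the Mir92 or the Mir19b pair are in no gene row. The miR-92 and miR-19 shares therefore cover only reads placed at a single locus.

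Few other genes carried these seeds in RefSeq. For the miR-17 seed there was Mir6383, at 0 counts in both libraries. For the miR-92 seed there were Mir32 at 196 CPM, or 2.69% of the gene-row counts of all hairpins with that seed, and Mir367 at 0 counts. With these included, the 4 hairpins outside Mir17hg described above held 71.9% of the gene-row counts of the miR-92 seed group, again without multimapping reads.

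Hairpin by hairpin, the gene row of every X-linked copy was lower than that of its counterpart in Mir17hg in both libraries. For Mir92-2 and Mir19b-2 this does not order the loci, since reads that match both hairpins of a pair are in neither row. Mir106a stood at 2.47% of Mir17 in replicate 1 and 2.36% in replicate 2. Mir20b stood at 3.56% of Mir20a in replicate 1 and 3.69% in replicate 2. Mir18b stood at 1.23% of Mir18 in each library, the lowest fraction among these copies. Mir92-2 stood at 5.24% of Mir92-1 in replicate 1 and 5.04% in replicate 2, and Mir19b-2 at 25.0% of Mir19b-1 in replicate 1 (10.6 to 52.9) and 36.6% in replicate 2 (18.8 to 67.5), both pairs with shared mature sequences. Mir93 came nearest to Mir17 among its relatives, at 48.3% in replicate 1 and 49.3% in replicate 2, and Mir106b stood at 23.1% of Mir17 in replicate 1 and 23.8% in replicate 2. Among the other hairpins with the miR-92 seed, Mir25 stood at 21.8% of Mir92-1 in replicate 1 and 21.7% in replicate 2, and Mir363 at 28.3% in replicate 1 and 23.0% in replicate 2. Mir92b was at 224% of Mir92-1 in replicate 1 and 237% in replicate 2, the only fraction of the 10 above 100%. The fractions of Mir25, Mir363 and Mir92b over Mir92-1 rest, for Mir92-1, on reads placed at that locus alone, since a full miR-92a-3p read also matches Mir92-2 and multimapping reads are in no gene row, so they may be lower for the locus itself.

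Between the libraries the 9 detected hairpins differed by at most 1.15-fold after scaling. The log2 ratios of replicate 1 over replicate 2, scaled by trimmed-mean (TMM) library sizes, ran from -0.20 for Mir92b to 0.17 for Mir363 over the 9 detected hairpins, with a median of -0.09. Over all 356 detected genes they ran from -1.05 to 2.51, with a median of -0.01. In absolute size the ratio of Mir92b exceeded those of 58.1% of detected genes, that of Mir20b 52.8% and that of Mir363 50.6%. Each of the remaining detected hairpins exceeded at most 36.8%. A two-sided exact binomial test of the counts, with Benjamini-Hochberg adjustment over the 356 genes, passed 45.2% of them at 0.05, 22.8% as higher in replicate 1 and 22.5% as lower. It takes counting as the only error and compares these libraries, not conditions. Of the 9 hairpins it passed 5, 1 higher and 4 lower in replicate 1, to be read against that background of 45.2%.

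The 5 were Mir363, higher in replicate 1, and Mir92b, Mir20b, Mir106b and Mir93, lower. Mir92b had the widest difference, 1.15-fold higher in replicate 2 (adjusted exact p = 6.22e-34). Mir363 had a log2 ratio of 0.17 (counting interval 0.08 to 0.27, adjusted exact p = 0.00134) and Mir20b one of -0.18 (-0.28 to -0.09, adjusted exact p = 4.25e-04), in opposite directions within the same cluster. Mir106a, the highest row of that cluster, had a log2 ratio of 0.00 (-0.07 to 0.07). Mir25 had a log2 ratio of -0.12 with an adjusted exact p of 0.0528, Mir18b -0.07 and Mir92-2 -0.07. The spread common to all detected genes was a biological coefficient of variation of 0.141, and the median absolute log2 ratio was 0.11 for the 9 hairpins and 0.17 for all detected genes. Of the 6 Mir17hg hairpins 5 passed the test, 0 higher and 5 lower in replicate 1. The part in these ratios of the cell type markers that differ between the libraries was not tested.

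**Figure D4:**
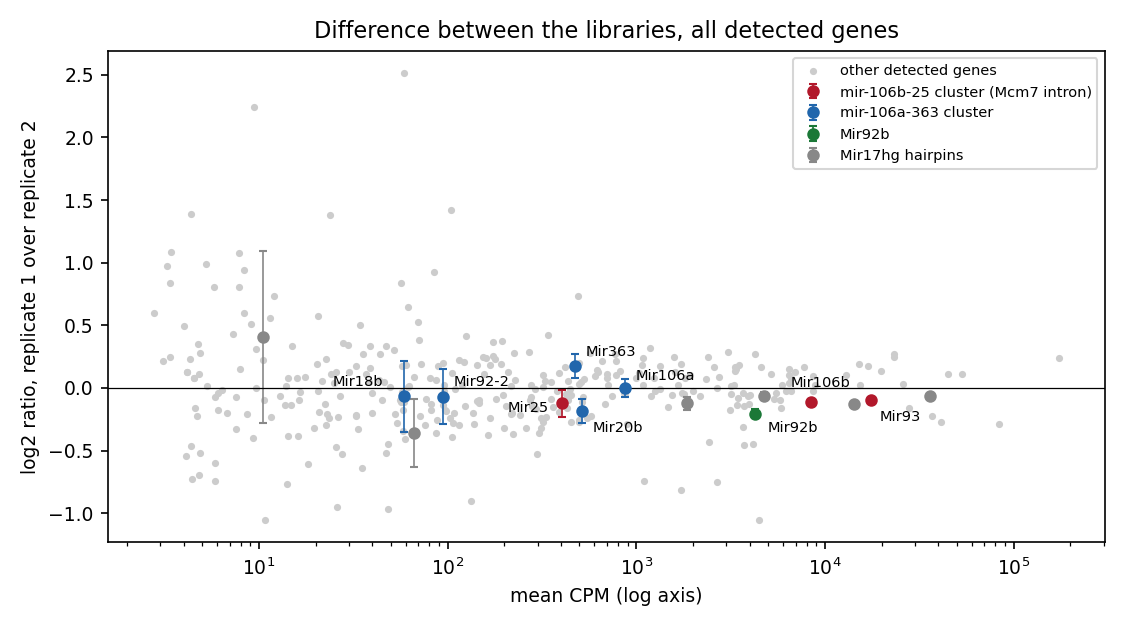
Log2 ratio of replicate 1 over replicate 2 against mean CPM on a log axis for the detected genes. Coloured points are the family's hairpins by locus with exact binomial 95% counting intervals. Small light grey dots are other genes, with the Mir17hg hairpins as larger grey points. The 9 named hairpins lie between -0.20 and 0.17. The Mir17hg hairpins lie between -0.36 for Mir19a (173 and 336 counts) and 0.41 for Mir19b-1 (36 and 41 counts). These low-count rows set both ends, and the other Mir17hg hairpins lie between -0.13 and -0.06.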

How the data were processed

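Per the labels and the README deposited with the tables, the gene quantifications of each library are on mm10 with the GENCODE M4 annotation. The sources used here name no aligner, counter or trimming. The deposited values are raw read counts, 1 table per library, in 3 columns: either strand, and each strand alone. The strand column with 98.1% of the either-strand gene counts in each library was used as the annotated strand. The 4 summary rows stayed out of all totals; gene rows held 49.0% of 6141045 reads in replicate 1 and 47.5% of 9486700 in replicate 2, unmapped reads 14.0% and 14.6%, and reads outside features 3.15% and 3.39%.

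Names, loci and hosts came from GENCODE M21 and sequences from RefSeq. TMM factors and the common coefficient of variation were computed with edgeR 4.0.16 over detected genes, size factors with DESeq2 1.42.0, and intervals and exact tests with R 4.3.3 and SciPy 1.17.1. With 1 group, edgeR's quasi-likelihood test had no contrast. The labels give the libraries as biological replicates 1 and 2, and they were used as 2 replicates. Their counts differed by more than counting noise (chi-square 38605.6 on 355 degrees of freedom), so they are not 1 library deposited again; this does not show separate animals. The genes named are all members, the Mir17hg hairpins and, for the highest of each locus, the 2 genes nearest in level. Cell type markers are named from a fixed list. Mir6383, Mir32 and Mir367, the other genes with these seeds in RefSeq, fall outside the rule and were added after their values were seen. Members and lists were chosen with earlier results of these data known. Alternatives were other scalings, strand columns, minimums, and leaving out a library.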

Additional observations from a re-analysis of the deposited data

How the results depend on the processing

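Levels of the 10 hairpins moved by less than the SD of the libraries with TMM sizes, and 9 of 10 did so with either-strand counts. Leaving out a library moves any mean of 2 by a fixed part of their SD, so it says nothing about stability. With all reads as the denominator all 10 were lower, since gene rows hold under 50% of reads. The sum of the mir-106a-363 cluster, 2019 CPM, became 1981 CPM with either-strand counts and 1921 CPM with only hairpins whose mature sequence is their own, and the share of the 10 hairpins over all seeds, 36.5%, became 37.2%; the last 2 values follow from dropping hairpins, and the either-strand value from a larger total, since the 10 hairpins have 0 counts on the other strand. That restriction leaves no Mir17hg hairpin with the miR-92 seed and no hairpin outside Mir17hg with the miR-19 seed, so neither share could be given. It was judged on RefSeq and GENCODE hairpins, not on a genome. The 10-count minimum left 9 hairpins, a minimum of 1 count left 10 and a minimum of 100 left 9. With totals in place of TMM, the log2 ratio of Mir106a was -0.0128 (adjusted exact p = 0.841) and that of Mir25 -0.13 (adjusted exact p = 0.0295), which passed; the other 7 kept their side. Under DESeq2 size factors, TMM over all rows, either-strand counts and a minimum of 1 count in either library, all 9 kept direction and side. No alternative moved the number of hairpins past the test by over 1.5 times. Depth limits Mir19b-2 most, with 9 and 15 counts.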
